A study of Mus musculus with 24 samples.

Results

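The genes described here encode the centromere and the kinetochore, the structures that tie each chromosome to the mitotic spindle, and were chosen by name: a list of 33 genes, of which 17 belong to the inner centromere and 16 to the outer kinetochore. Of the 33, 32 had an array probe set assigned to that gene alone, out of 18193 genes measured that way. The missing member was Hjurp, the chaperone that deposits CENP-A, whose 5 probe sets each carried several gene symbols and gave no value. All 32 measured genes are accounted for below, and no filter on low values was applied.

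The study profiled 12 primary B-cell lymphomas of Emu-myc transgenic mice, in which the c-Myc oncogene is active in the B-cell lineage. Lymphoma cells came from enlarged lymph nodes, received Bcl2 by a retrovirus (MSCVpuro) and were selected with puromycin, so both groups carried the Emu-myc transgene and the anti-apoptotic Bcl2 gene. Each lymphoma was profiled untreated and after 5 days with Adriamycin (ADR; doxorubicin, which damages DNA) at 0.05 µg/ml, which gave 12 untreated and 12 ADR arrays in matched pairs. Bcl2 was supplied so that damaged cells would enter senescence rather than die, and the age of the mice is not given in the labels used here. The cells grew on gamma-irradiated NIH 3T3 fibroblasts, and the RNA is that of the whole culture.

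At a centromere, the histone H3 variant CENP-A replaces histone H3 and anchors a set of proteins called the constitutive centromere-associated network. In mitosis that network recruits the KMN network (Knl1, the Mis12 complex and the Ndc80 complex), which binds spindle microtubules, and an outer corona of motors and checkpoint proteins. Many of these genes are transcribed mainly in dividing cells, peaking in G2 and mitosis, and cells that leave the cycle lower them; promoter elements named CHR (cell cycle genes homology region) and CCAAT boxes are known for that regulation.

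Promoter sequences are shown first for 7 members, picked after their values were seen: the 4 largest falls among members with an entry in the promoter table, and the 3 members that were not called lower. Each runs from 150 bases before to 30 bases after the RefSeq transcription start in GRCm38.p6, 5′ to 3′ on the strand of the gene. Capitals mark the words searched on both strands: TTTGAA or TTCGAA (CHR words), CCAAT, and the E2F words TTTGGCGC, TTTCCCGC, TTTGCCGC and TTTCGCGC. The first 4 genes fell, by 3.66-fold (Cenpa) to 4.95-fold (Nuf2).
Nuf2, chr1:169531435-169531614, minus strand: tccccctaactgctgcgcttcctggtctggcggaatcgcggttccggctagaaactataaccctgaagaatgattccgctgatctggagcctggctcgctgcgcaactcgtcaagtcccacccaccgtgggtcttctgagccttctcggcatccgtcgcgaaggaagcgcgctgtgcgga
Cenpf, chr1:189688057-189688236, minus strand: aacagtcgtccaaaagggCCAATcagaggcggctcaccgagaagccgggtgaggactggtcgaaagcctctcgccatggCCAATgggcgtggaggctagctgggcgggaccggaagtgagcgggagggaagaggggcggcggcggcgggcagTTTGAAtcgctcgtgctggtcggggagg
Cenpp, chr13:49652702-49652881, minus strand: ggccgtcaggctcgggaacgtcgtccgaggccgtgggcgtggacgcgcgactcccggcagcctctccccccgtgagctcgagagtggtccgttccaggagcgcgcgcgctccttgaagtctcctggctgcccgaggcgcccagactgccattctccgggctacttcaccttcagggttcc
Cenpa, chr5:30666736-30666915, plus strand: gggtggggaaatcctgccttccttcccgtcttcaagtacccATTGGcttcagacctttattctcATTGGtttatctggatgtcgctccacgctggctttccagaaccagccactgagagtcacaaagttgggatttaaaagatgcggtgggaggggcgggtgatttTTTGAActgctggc
The next 3 genes were Zwint, which was higher after ADR, and Mis12 and Cenpt, which were not called changed.
Zwint, chr10:72654696-72654875, plus strand: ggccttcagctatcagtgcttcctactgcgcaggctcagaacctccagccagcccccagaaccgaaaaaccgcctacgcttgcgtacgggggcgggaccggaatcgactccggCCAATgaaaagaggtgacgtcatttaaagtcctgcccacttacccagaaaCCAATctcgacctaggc
Mis12, chr11:71019461-71019640, plus strand: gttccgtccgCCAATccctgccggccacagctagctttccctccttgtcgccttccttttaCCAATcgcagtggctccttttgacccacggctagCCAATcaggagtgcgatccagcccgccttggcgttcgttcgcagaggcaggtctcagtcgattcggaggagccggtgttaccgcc
Cenpt, chr8:105851979-105852158, minus strand: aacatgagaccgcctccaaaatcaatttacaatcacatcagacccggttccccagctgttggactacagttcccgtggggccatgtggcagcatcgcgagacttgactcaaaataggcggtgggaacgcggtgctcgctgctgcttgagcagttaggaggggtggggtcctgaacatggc

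The 4 falling genes were split. Cenpf and Cenpa each held 2 CCAAT words and a CHR word close to the start, at base 3 after the start in Cenpf and base 17 in Cenpa, while Nuf2 and Cenpp held 0 of the words. Over the full RefSeq window of 250 bases before to 50 after the start, Zwint held 2 CCAAT words and Mis12 held 4, and neither held a CHR or an E2F word. The Cenpt window, like those of Nuf2 and Cenpp, held 0 of the words. How the words were spread over all members follows the expression values.

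After ADR, 29 of the 32 measured members were lower at a limma adjusted p under 0.05, 1 was higher and 2 passed in neither direction, on a background of 12.8% of 18193 genes called lower and 13.7% called higher. The median change over the 32 members was -1.41 on the log2 scale, against -0.01 over all genes. Of the 32, 26 were called and at least 2-fold lower, where 1.96% of all genes were. Member by member, 27 were lower in all 12 lymphomas, against 4.17% of all genes. In 5 members (Oip5, Ndc80, Spc24, Spc25 and Ska1) every ADR array lay below every untreated array, which held for 0.264% of all genes. In these whole-culture samples, fewer dividing lymphoma cells and less RNA per cell cannot be told apart.

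**Figure D1:**
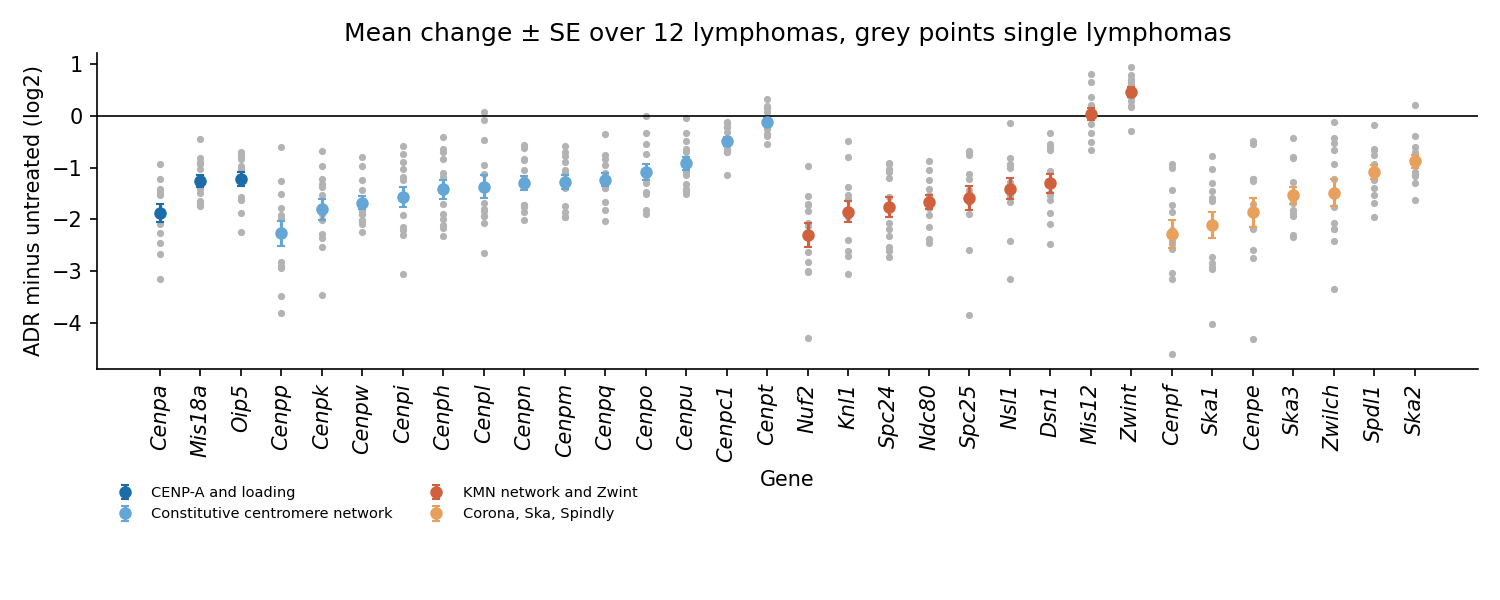
Mean change (ADR minus untreated, log2) with its standard error for the 32 measured members, grouped by role on the x axis and coloured by role, with the 12 single lymphomas as grey points. Means run from -2.31 (Nuf2) to 0.45 (Zwint), and Cenpt, Mis12 and Zwint are the members whose mean lies closest to or above 0.

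CENP-A itself fell, most deeply on its brightest probe set, which is the one described here. Its gene Cenpa had levels of 9.25 to 11.78 (median 10.33) in untreated lymphomas and 7.39 to 9.52 (median 8.42) after ADR, on the log2 scale of the arrays. The groups overlapped in 3 ADR arrays, but Cenpa was lower in 12 of 12 lymphomas. The change was -1.87 ± 0.17 (SE, n = 12 pairs), 3.66-fold lower, with a limma adjusted p of 1.7e-05. Its dimmer probe sets changed by -1.14 and -0.14, the latter with an untreated mean of only 2.87. With the mean of all probe sets the change was -1.05 (limma adjusted p = 2.5e-05), where the members' median was -1.28. The size and rank of this fall thus depend on the probe set.

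The Mis18 complex, which licenses centromeres for new CENP-A, fell with it. Mis18a ran from 8.60 to 9.70 (median 9.20) untreated and from 7.12 to 9.24 (median 7.78) with ADR, a change of -1.27 ± 0.12 (SE, n = 12; adjusted p = 1.7e-05, limma). One ADR array overlapped the untreated range. Oip5, which encodes the Mis18 beta subunit, ran from 5.99 to 6.96 (median 6.71) untreated and from 4.52 to 5.99 (median 5.35) with ADR, so that the highest ADR array lay just below the lowest untreated one. Its change was -1.21 ± 0.13 (SE, n = 12; adjusted p = 3.8e-05, limma). Within lymphomas Mis18a and Oip5 differed by -0.05 ± 0.46 (mean ± SD), smaller than the spread between lymphomas.

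In the constitutive centromere network, 12 of 13 members fell and the size differed widely from subunit to subunit. The deepest was Cenpp, of the CENP-O group of subunits, with untreated levels of 6.73 to 7.92 (median 7.50) and ADR levels of 3.67 to 6.89 (median 5.19). Only 1 ADR array, that of lymphoma 3802, reached the untreated range. The change was -2.27 ± 0.25 (SE, n = 12), 4.82-fold lower (limma adjusted p = 3.4e-05). Other genes of that group fell by less: Cenpq changed by -1.23, Cenpo by -1.08 and Cenpu by -0.92. Cenpp fell further than Cenpo in 11 of 12 lymphomas and further than Cenpu in 10 of 12.

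Cenpk, of the CENP-H, CENP-I, CENP-K and CENP-M group that bridges inner and outer layers, was next. Its untreated range was 7.44 to 9.00 (median 8.36) and its ADR range 5.35 to 7.45 (median 6.47), a change of -1.80 ± 0.20 (SE, n = 12; limma adjusted p = 4.3e-05). A single ADR array overlapped the untreated ones. Its group partners changed by -1.57 (Cenpi), -1.42 (Cenph) and -1.28 (Cenpm). Cenpl and Cenpn, whose proteins recognise the CENP-A nucleosome as a pair, changed by -1.37 and -1.29, which differed by less than the spread between lymphomas. Cenpl was lower in 11 of 12 lymphomas, with lymphoma 3594 the exception.

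Cenpc1 encodes CENP-C, which binds the CENP-A nucleosome directly and holds the Mis12 complex, and had the smallest fall. It ran from 7.86 to 8.89 (median 8.45) untreated and from 7.22 to 8.39 (median 8.03) with ADR. The groups overlapped in 7 ADR arrays, yet all 12 lymphomas were lower. The change was -0.49 ± 0.09 (SE, n = 12), 1.41-fold lower (limma adjusted p = 0.00098). The call ended with the fibroblast covariate (-0.43, limma adjusted p = 0.15), the macrophage covariate (-0.27, adjusted p = 0.43), centring on B lineage markers (-0.04, adjusted p = 0.87) and in the 5 lymphomas whose treated array files are named "sen" (-0.66, adjusted p = 0.055). Cenpk fell further than Cenpc1 in 12 of 12 lymphomas.

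Cenpt was the network member with no call. Its product, CENP-T, joins CENP-W in a histone-fold pair that binds DNA, and recruits the Ndc80 complex. Untreated levels were 6.82 to 7.74 (median 7.27) and ADR levels 6.57 to 7.93 (median 7.12), with 10 ADR arrays inside or above the untreated range. The change was -0.12 ± 0.08 (SE, n = 12; limma adjusted p = 0.30), and 8 of 12 lymphomas were lower. Its partner Cenpw, by contrast, changed by -1.68 ± 0.13 (3.21-fold lower, limma adjusted p = 8.1e-06, the lowest of the members). In each of the 12 lymphomas Cenpw fell further than Cenpt, by 1.56 ± 0.39 on the log2 scale (mean ± SD; range 0.92 to 2.22).

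**Figure D2:**
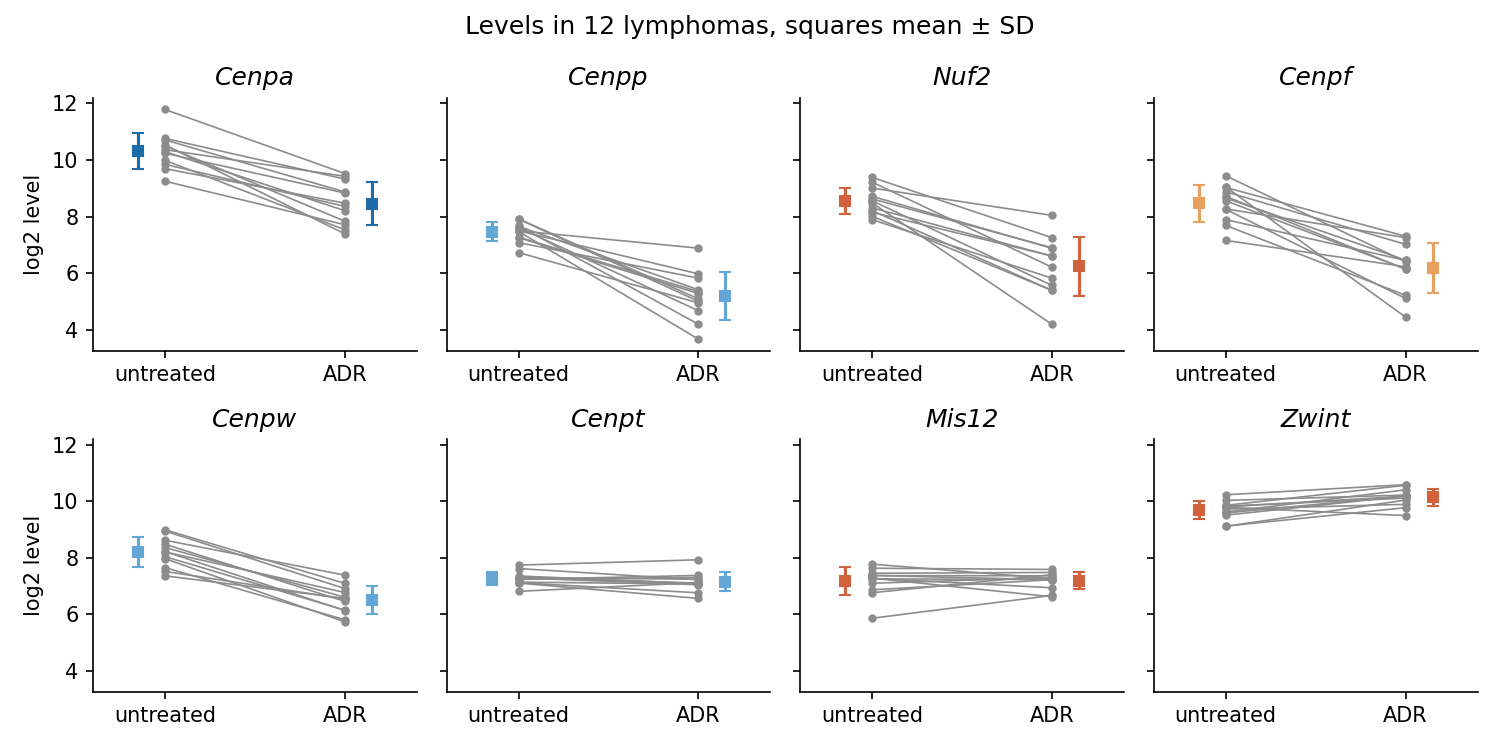
Levels (log2) of 8 members in each lymphoma, untreated and ADR arrays joined by a line, with squares for the mean ± SD of 12 arrays. Lines slope down for Cenpa, Cenpp, Nuf2, Cenpf and Cenpw, lie nearly flat for Cenpt and Mis12, and slope up for Zwint in 11 of 12 lymphomas.

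The Ndc80 complex, the main microtubule-binding unit of the kinetochore, fell in all 4 subunits. Ndc80 ran from 6.90 to 8.20 (median 7.43) untreated and from 4.96 to 6.81 (median 5.80) with ADR, with no overlap. Its change was -1.67 ± 0.13 (SE, n = 12), 3.19-fold lower (limma adjusted p = 9.2e-06). Nuf2, which pairs with Ndc80 to form the microtubule-binding end, had the largest fall of the 32. It ran from 7.89 to 9.38 (median 8.52) untreated and from 4.19 to 8.04 (median 6.41) with ADR, a change of -2.31 ± 0.23 (SE, n = 12), 4.95-fold lower (limma adjusted p = 2.5e-05). One ADR array, that of lymphoma 3802, overlapped the untreated range. Nuf2 fell further than Ndc80 in 11 of 12 lymphomas. The centromere-facing pair changed by -1.76 (Spc24) and -1.58 (Spc25), and every ADR array lay below every untreated array for both.

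Knl1 is the scaffold on which the checkpoint kinase Bub1 gathers. Its levels were 5.45 to 7.54 (median 6.96) untreated and 4.10 to 6.38 (median 5.07) after ADR, and 2 ADR arrays overlapped the untreated ones. The change was -1.85 ± 0.20 (SE, n = 12; limma adjusted p = 3.4e-05), 3.60-fold lower.

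Zwint, whose protein binds Knl1 and brings the Rod, Zwilch and Zw10 complex to kinetochores, was the only member called higher. It ran from 9.11 to 10.23 (median 9.75) untreated and from 9.49 to 10.58 (median 10.18) with ADR. All 12 ADR arrays lay above the lowest untreated array, the groups overlapped, and 11 of 12 lymphomas were higher, lymphoma 1570 being the exception. The change was 0.45 ± 0.09 (SE, n = 12), 1.37-fold higher (limma adjusted p = 0.0031). Against Zwint, Knl1 fell by 2.30 ± 0.77 more (mean ± SD), in 12 of 12 lymphomas.

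The rise of Zwint rested on its brightest probe set. Its 6 other probe sets had mean changes of -0.02 to 0.20, and the mean over all 7 was 0.15 (limma adjusted p = 0.19). With the probe set of largest variance the change was 0.12 (adjusted p = 0.74, limma), and the call was also lost with the fibroblast or macrophage markers as a covariate and in the 5 lymphomas whose treated array files are named "sen". None of the 7 probe sets had a mean change below -0.02.

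The Mis12 complex, the hub that joins CENP-C to Knl1 and Ndc80, was split. Mis12 had levels of 5.87 to 7.78 (median 7.28) untreated and 6.62 to 7.59 (median 7.25) with ADR, and all 12 ADR arrays lay above the lowest untreated array. Its change was 0.03 ± 0.12 (SE, n = 12; limma adjusted p = 0.91), with 7 of 12 lymphomas lower. The subunits Dsn1 and Nsl1 changed by -1.30 and -1.41 and were called lower. In 12 of 12 lymphomas Dsn1 fell further than Mis12, by 1.33 ± 0.72 (mean ± SD), and so did Nsl1, by 1.43 ± 0.87. Pmf1, the remaining subunit and no member of the list, changed by -0.20 ± 0.11 (SE, n = 12, limma adjusted p = 0.20). On the probe sets used, 2 of the 4 subunits thus fell and 2 were not called. The other probe set of Nsl1, with an untreated mean of 5.18, changed by 0.09 and was higher in 8 of 12 lymphomas. The fall of Nsl1 and its contrast with Mis12 therefore rest on 1 of its 2 probe sets.

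All 7 corona, Ska and Spindly genes fell. Cenpf, a large coiled-coil protein of the corona that accumulates in G2, led with untreated levels of 7.16 to 9.44 (median 8.61) and ADR levels of 4.45 to 7.31 (median 6.32). Only 2 ADR arrays reached the untreated range. The change was -2.28 ± 0.27 (SE, n = 12), 4.87-fold lower (limma adjusted p = 5.2e-05). Cenpe, the kinesin motor that carries chromosomes to the spindle equator, changed by -1.86, and Zwilch, of the complex that recruits dynein, by -1.49. Spdl1, encoding the dynein adaptor Spindly, ran from 6.91 to 8.53 (median 7.86) untreated and from 5.76 to 7.77 (median 6.74) with ADR, a change of -1.09 ± 0.13 (SE, n = 12; limma adjusted p = 7.4e-05), with 4 ADR arrays inside the untreated range.

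The Ska complex, which tracks microtubule ends beside Ndc80, differed among its 3 subunits. Ska1 ran from 7.27 to 8.50 (median 7.88) untreated and from 3.93 to 7.04 (median 6.01) with ADR, without overlap, a change of -2.11 ± 0.26 (SE, n = 12; limma adjusted p = 6.6e-05). Ska3 changed by -1.53. Ska2 ran from 7.29 to 8.24 (median 7.92) untreated and from 6.15 to 7.84 (median 6.99) with ADR and changed by -0.88 ± 0.13 (SE, n = 12; limma adjusted p = 0.00022). It was higher in lymphoma 5560 and lower in the other 11. Ska1 fell further than Ska2 in 12 of 12 lymphomas.

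Set side by side, the inner and outer layers differed by less than the lymphomas did. Of 16 inner members 15 fell and 1 was not called, with a median change of -1.29. Of 16 outer members 14 fell, 1 rose and 1 was not called, with a median of -1.56. Per lymphoma, the outer mean minus the inner mean was -0.11 ± 0.23 (SD, n = 12), with the outer genes deeper in 9 lymphomas and the inner genes in 3. Without lymphoma 2949, whose own difference was -0.69, it was -0.058. It was 0.034 in the 5 lymphomas whose treated array files are named "sen", against -0.21 in the 7 named "DOX". The spread inside each layer was wider: inner changes ran from -2.27 (Cenpp) to -0.12 (Cenpt), and outer changes from -2.31 (Nuf2) to 0.45 (Zwint).

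**Figure D3:**
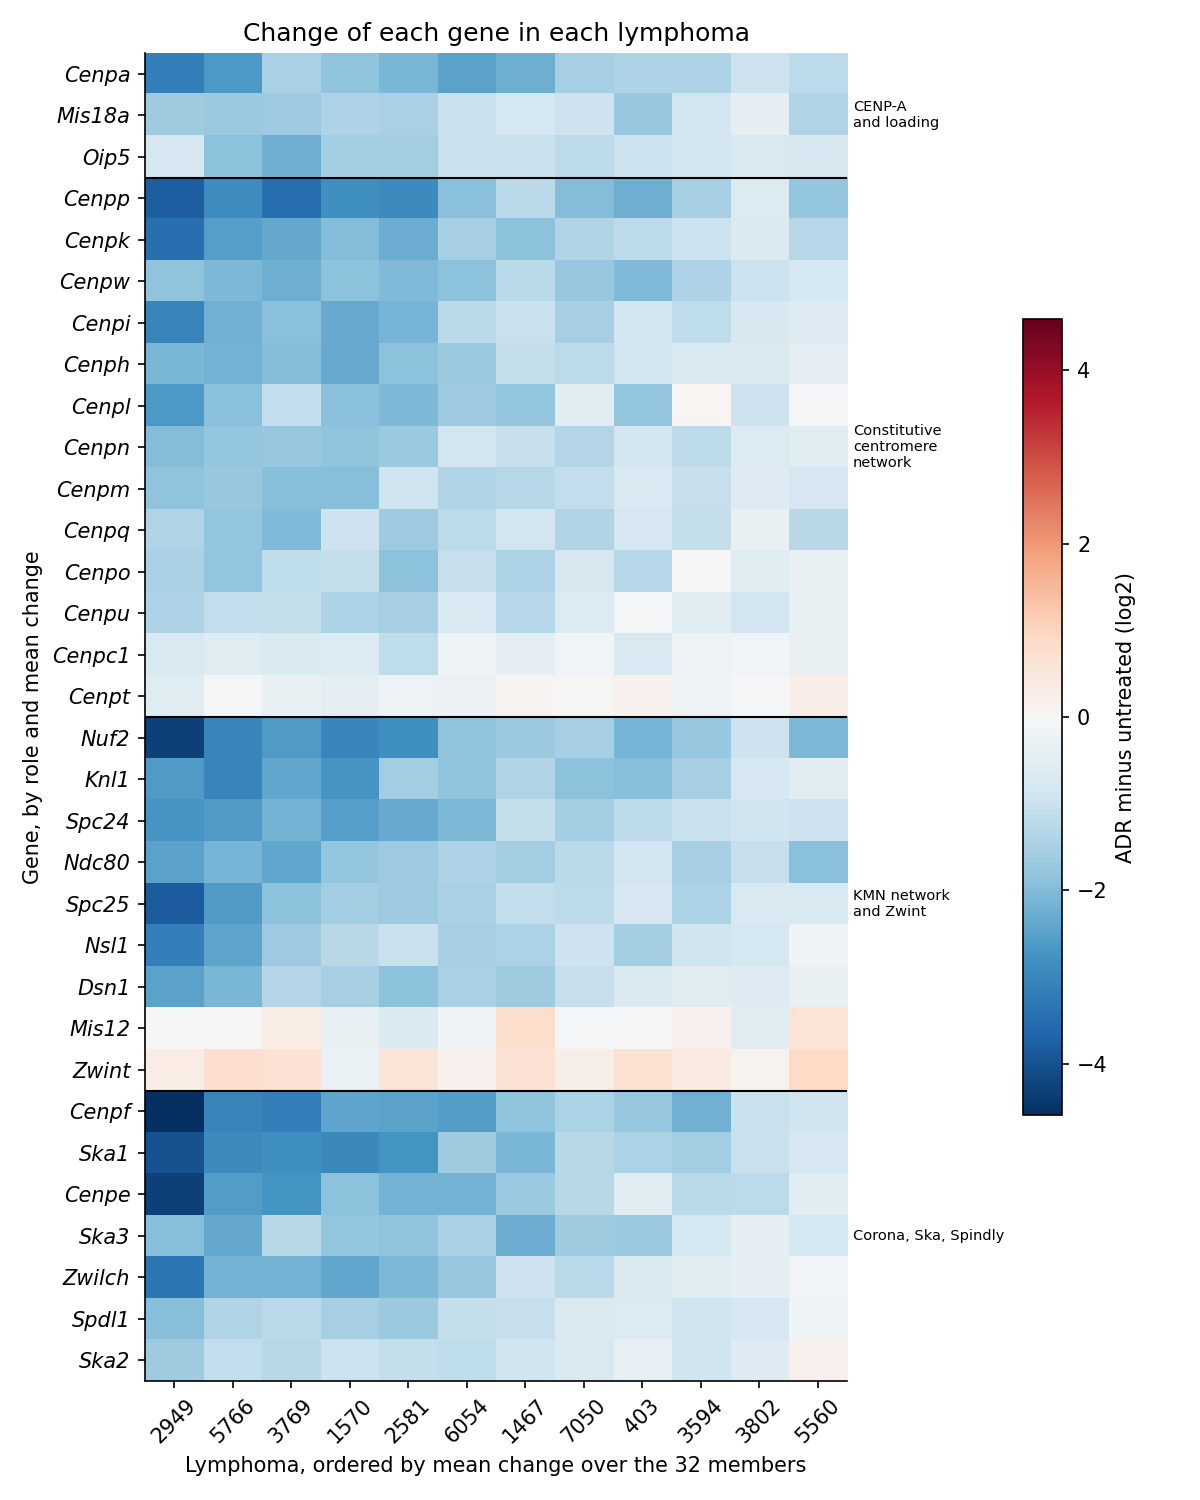
Change (ADR minus untreated, log2, blue lower and red higher) of each member (rows, by role) in each of the 12 lymphomas (columns, ordered by their mean change over the members). Lymphoma 2949 is the darkest column with a mean of -2.34 and lymphoma 5560 the palest with -0.62, while the Cenpt, Mis12 and Zwint rows lie between -0.66 and 0.93 across columns.

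The depth of the fall differed between lymphomas, and most members were deepest or shallowest in the same few. The mean change over the 32 members ran from -2.34 in lymphoma 2949 to -0.62 in lymphoma 5560, with 28 to 32 members lower in each. Of the 29 falling genes, 18 had their deepest fall in lymphoma 2949, and 24 had their smallest change in lymphoma 5560 or 3802. In lymphoma 2949 Cenpf changed by -4.60, Cenpe by -4.30 and Nuf2 by -4.29; its ADR array was the lowest of the 12 for 23 members. Lymphoma 5560 began lower: its untreated mean over the members was 7.15, against 7.66 to 8.29 in the others, and 24 members had their lowest untreated level there. The call counts were the same without any single lymphoma (29 lower and 1 higher each time).

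Across the 12 lymphomas the members' changes ran together, as a description over arrays that all members share. The median of 496 pairwise Pearson correlations was 0.64, and 30 of 32 members correlated above 0.5 with the mean of the others. The exceptions were Zwint (0.10) and Mis12 (0.21). Cenpt, although not called, correlated with the mean of the others at 0.75. Members also spread more after ADR: the SD between lymphomas was larger in the ADR group for 26 of 32. The same held for 10876 of all 18193 genes. The median ratio was 1.32 in the members against 1.10 over all genes.

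**Figure D4:**
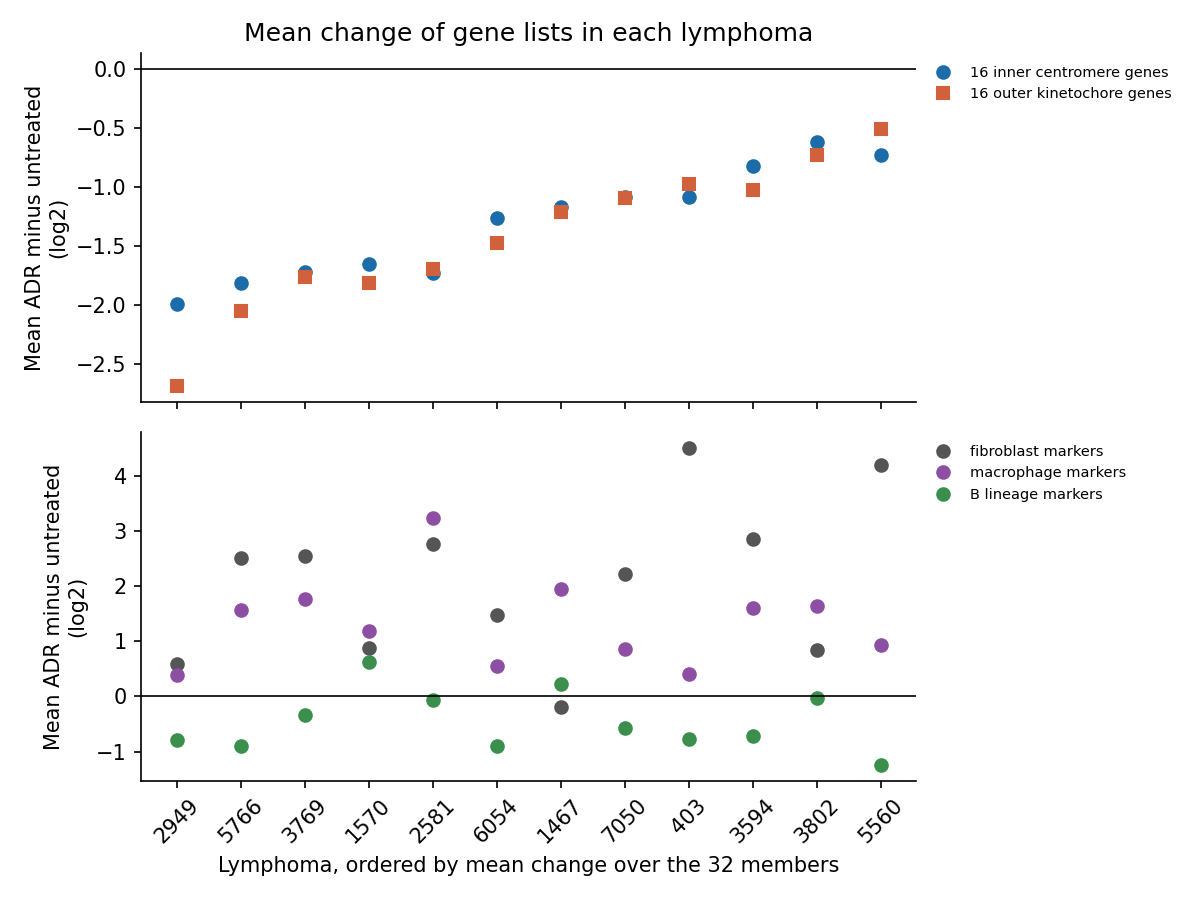
Mean change (ADR minus untreated, log2) in each lymphoma of the 16 inner and 16 outer genes (top) and of fibroblast, macrophage and B lineage marker lists (bottom), lymphomas ordered as by the members' mean. Inner and outer genes change by -0.73 and -0.51 in lymphoma 5560, by -0.62 and -0.73 in lymphoma 3802, and by -1.99 and -2.68 in lymphoma 2949. Fibroblast markers are highest in lymphomas 403 (4.50) and 5560 (4.20) and change by 0.84 in lymphoma 3802.

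Markers of other cells moved with treatment. Over all genes, 13.7% were called higher and 12.8% lower. Of 17 fibroblast markers, 13 were higher after ADR and 0 lower. Their mean level per array ran from 4.59 to 5.68 untreated and from 5.04 to 9.31 with ADR. Of 14 macrophage markers, 10 were higher and 0 lower, with mean levels of 5.03 to 8.40 untreated and 6.21 to 9.66 with ADR. Of 8 B lineage markers 3 were lower and 0 higher, from 8.37 to 9.46 untreated and from 7.28 to 10.09 with ADR. Untreated means of single B lineage markers ran from 5.05 (Pax5) to 11.54 (Blnk). Those of single macrophage markers ran from 3.58 (Mrc1) to 11.99 (Lyz1), so bright genes of both cell types were present before treatment. Of 7 T and NK markers 1 was lower and 0 higher, with means per array near the array medians (4.12 to 4.73 untreated, 4.00 to 4.86 with ADR). Among them Klrd1 reached 7.27 untreated (median 3.07) and 6.85 with ADR (median 2.94). No value on this scale is 0.

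With the fibroblast marker mean of each array as a covariate, 28 members were lower, where 3.42% of all genes were, and the members' median was -1.78. With the macrophage mean as the covariate the members' median was -1.42 and 7 were called lower (Cenpa, Mis18a, Cenpm, Cenpw, Knl1, Ndc80 and Nuf2), where 0.753% of all genes were. With arrays centred on the B lineage markers, which moved the median of all genes to 0.45, 26 members were lower, where 2.33% of all genes were, and the median was -0.96. The calls of Cenpc1, Cenpu and Ska2 ended under that centring, and Mis12 was then called higher (0.48, limma adjusted p = 0.047). Without lymphomas 403 and 5560, 29 members were lower, where 10% of all genes were, and the median was -1.55. What part these cells had in the changes beyond those values was not tested.

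Whether the drug response of the members differed between the "sen" and "DOX" naming sets was tested with an interaction term in limma. It called 0 of 18193 genes (0%), with 1237 genes and 0 members at an unadjusted p under 0.05. Fitted alone, the 5 sen lymphomas gave 20 members lower (median -1.27), where 2.6% of all genes were. The 7 DOX lymphomas gave 29 (median -1.46), where 8.8% of all genes were. Members' differences (DOX minus sen) ran from -0.85 to 0.30 on the log2 scale.

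The genes that work beside the members fell as well as a group. Of 22 measured partners, 18 were called lower and 0 higher, where 12.8% of all genes were called lower and 13.7% higher. The partners' median change was -1.65. Among 8 further centromere and kinetochore genes 6 fell, led by Kntc1 (Rod, the partner of Zwilch; -1.68 ± 0.25, SE, n = 12; limma adjusted p = 0.00027) and Knstrn, which binds microtubule ends (-1.66 ± 0.20; adjusted p = 6.9e-05). Cenps and Cenpx, the histone-fold partners of Cenpt and Cenpw, changed by -1.50 and -0.65, Itgb3bp (CENP-R) by -1.01 and Zw10 by -0.44. Cenpb, which binds the centromeric satellite repeat, was not called (0.16 ± 0.15; adjusted p = 0.52, limma), nor was Pmf1.

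In the spindle assembly checkpoint, which holds anaphase until kinetochores are attached, 6 of 8 genes fell, where 12.8% of all genes did. Bub1b, encoding the checkpoint protein BubR1, changed by -2.24 ± 0.17 (SE, n = 12; limma adjusted p = 9.0e-06) and Bub1, the kinase docked on Knl1, by -2.19 ± 0.27 (adjusted p = 7.8e-05). Ttk, Trip13, Mad2l1 and Bub3 changed by -2.17, -1.76, -1.63 and -0.54. Mad1l1, the kinetochore receptor of Mad2 (-0.20, adjusted p = 0.19), and Mad2l1bp, which opens Mad2 to end the signal (-0.07, adjusted p = 0.55), were not called by limma.

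All 6 genes of the chromosomal passenger complex and the shugoshins fell. Aurkb, the kinase that releases faulty attachments, changed by -2.43 ± 0.21 (SE, n = 12; limma adjusted p = 1.3e-05), a larger value than that of any member, and Birc5 (survivin), which brings it to centromeres, by -2.14 ± 0.25 (adjusted p = 5.8e-05). Incenp, Cdca8, Sgo1 and Sgo2a changed by -1.44, -1.82, -1.68 and -1.74. For scale, 10 of 12 mitotic kinesins fell (median -1.65), as did 10 of 10 replication licensing genes (median -1.31). The share called lower over all genes was 12.8%. The 2 uncalled kinesins, Kif14 and Kif15, had weak signal, with untreated means of 3.08 and 4.26, below every array median.

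Returning to the promoters, RefSeq windows of 300 bases were found for 29 of the 33 members, 28 of them measured (25 that fell and the 3 not called lower). A CHR word stood in 13 of the 25 falling members (52%), against 15.04% of 14452 array genes and 20.1% of 1925 array genes called lower. In 10 of those 13 the word began within 50 bases of the start, which held for 24.8% of the 2174 array genes with a CHR word. CCAAT stood in 17 of 25 (68%), in 38.2% of array genes and in 44.3% of array genes called lower. An E2F word stood in 4 of 25 (16%), in 3.38% of array genes and in 8.31% of those called lower. Both a CHR word and CCAAT stood in 9 of 25 (36%), against 6.13% of array genes and 9.82% of those called lower.

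Of Zwint, Mis12 and Cenpt, 0 of 3 windows held a CHR or E2F word, and 2 of 3 held CCAAT. A CHR or E2F word stood in 14 of the 25 falling members with a window, in 17.96% of array genes and in 26.96% of array genes called lower. At such shares 3 windows are too few to show a difference from the falling members. Among the 25 falling genes with a window, the median change was -1.53 for the 13 with a CHR word and -1.36 for the 12 without. Nuf2, Cenpp and Cenpo fell with 0 of the words in the window, including the deepest and third-deepest falls. Nsl1, Spc24, Zwilch and Ska1 had no entry in the table. A match here describes letters only, and other starts of a gene were not searched.

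**Figure D5:**
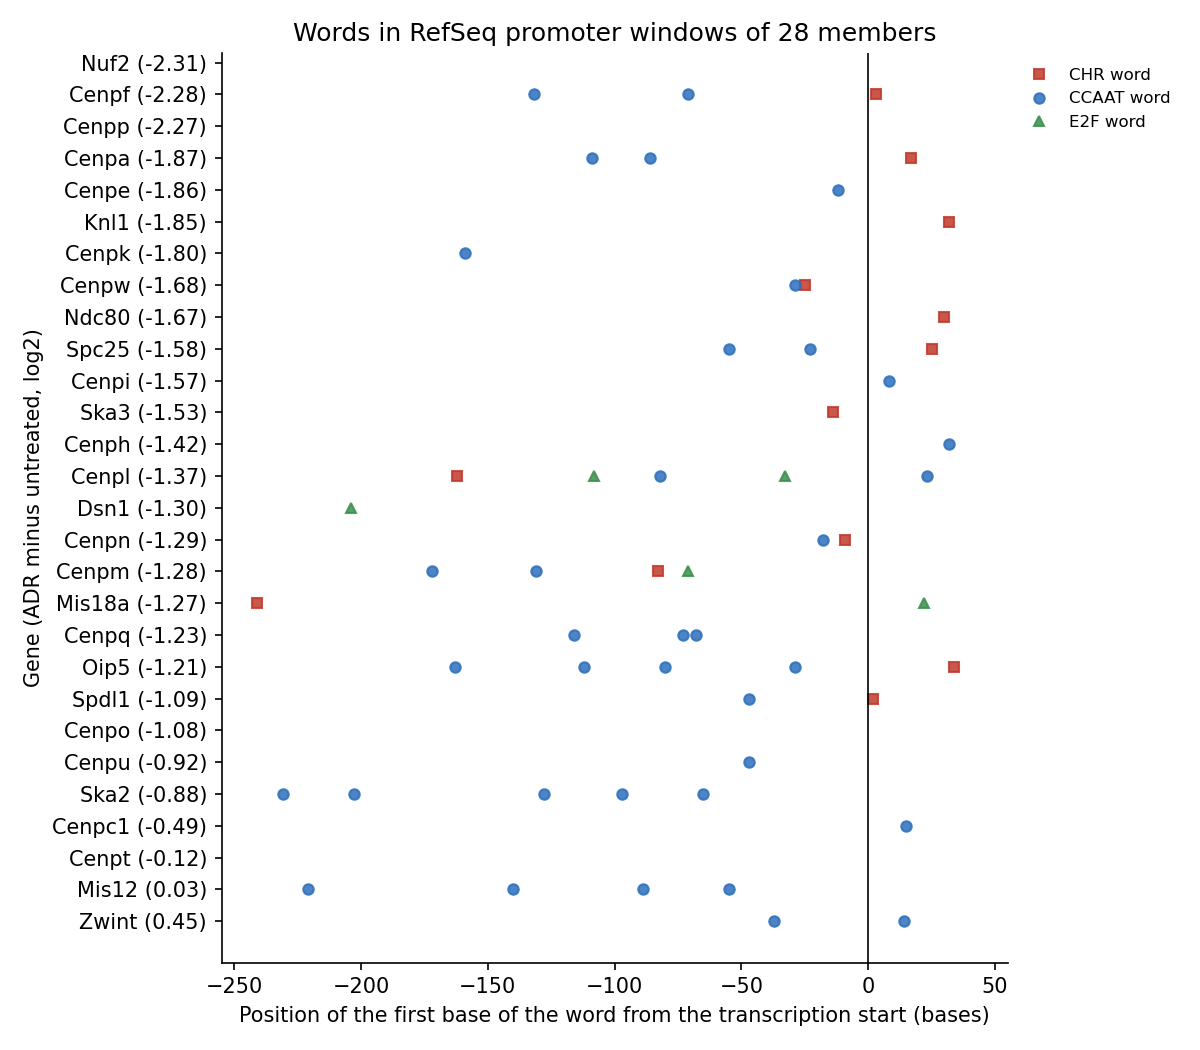
Position of CHR, CCAAT and E2F words (x axis, bases from the RefSeq transcription start) in the promoter windows of 28 measured members, ordered from the deepest fall at the top to the rise of Zwint at the bottom, with the log2 change in brackets. CHR words stand in 13 of 25 falling members, and in 10 of those 13 the word begins within 50 bases of the start. The 3 bottom rows (Cenpt, Mis12 and Zwint) hold no CHR word and are too few for a comparison.

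Several members had more than 1 probe set (16 of 32). Outside Zwint, 24 further probe sets were measured, of which 23 had a lower mean with ADR; the exception was the dimmer of the 2 probe sets of Nsl1 (0.09). Of the 15 whose untreated mean was above 4.47, the highest array median, 14 had a lower mean and 12 were lower in at least 11 of 12 lymphomas. In 7 members (Cenpi, Cenpp, Knl1, Nsl1, Nuf2, Cenpf and Ska1) between 1 and 3 ADR arrays were at or below 4.47. Weak array values can be flattened, so the size of these falls can be understated, which was not tested.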

How the data were processed

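Total RNA of 24 cultures was measured on Affymetrix arrays. The deposited table holds log2 values per probe set and array, made by the authors with RMA and Partek, per the submitters' processing notes; versions, settings and scan batches are not given in the sources used here. RMA flattens weak values. Array medians lay between 4.38 and 4.47.

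Each gene was represented by 1 probe set naming that gene alone, the brightest on average over the 24 arrays (18193 genes, from the platform annotation). ADR and untreated arrays were compared in limma 3.58.1 under R 4.3.3 (lmFit, eBayes), blocking on lymphoma, Benjamini-Hochberg adjusted over all genes, called under 0.05. The design text states matched pairs, and untreated and ADR arrays of a lymphoma deviated together (r = 0.26 to 0.59 in the 12 pairs). Of the 12 untreated arrays, 10 correlated best with the ADR array of their own lymphoma. Each p-value weighs a gene's mean paired change against how much that change varied from lymphoma to lymphoma. Only 12 pairs were available, which bounds how closely each change could be estimated. The fit was tested on simulated data. Fold changes are 2 to the log2 change.

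The members, lists, tests and alternatives were chosen with earlier results of these data known. All members are named; full values are given per role for the 2 largest and 2 smallest changes, members not called or higher, Cenpa and Ndc80, and for the 2 largest falls and uncalled genes of the partner lists. Cenpw was added after its values were seen. Promoters came from RefSeq (GRCm38.p6; 1 window per gene, the first listed). Alternatives covered pairing, array scaling, probe set choice, a filter on dim genes, array weights, an exact sign-flip test, marker covariates, naming sets and leaving out lymphomas.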

Additional observations from a re-analysis of the deposited data

How the results depend on the processing

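Under every alternative run, each of the 29 falling members that was tested kept a lower mean. Leaving out each lymphoma in turn gave 29 members lower and 1 higher, 18 partners lower, medians of -1.52 to -1.29 for the members, -1.35 to -1.24 for the inner and -1.65 to -1.44 for the outer ones, an outer minus inner difference of -0.14 to -0.06 (the latter without lymphoma 2949), and 1928 to 2541 genes lower and 2038 to 2624 higher. The call of Zwint was lost, leaving 0 members higher, with the largest-variance probe set, with the mean of all probe sets, with the fibroblast or macrophage covariate and in the sen lymphomas. Centring on B lineage markers gave 2 members higher and 424 genes lower and 10448 higher. The fibroblast covariate left 622 genes lower and 438 higher. The macrophage covariate left 7 members and 4 partners lower, and 137 genes lower and 59 higher. In the 5 sen lymphomas 20 members were lower, 473 genes lower and 338 higher, and the outer minus inner difference turned to 0.034; in the 7 DOX lymphomas 29 members were lower, 1601 genes lower and 1649 higher. Without the lymphoma as a block (no pairing) 29 members were lower, 1 was higher and 1630 genes were higher. The exact two-sided sign-flip permutation test also called 29 members lower and 1 higher. Omitting lymphomas 403 and 5560 was chosen after seeing the data. Causes of these differences were not tested. Weak array signal can limit the size of some of the deepest falls, which was not tested, and the naming sets hold fewer lymphomas.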
